A study of Mus musculus with 22 samples.

Results

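The genes described here are 10 regulators and markers of naive pluripotency, Klf2, Klf4, Klf5, Esrrb, Tbx3, Tfcp2l1, Zfp42, Nr0b1, Prdm14 and Dppa3, taken by symbol from the 24819 genes listed in each of 2 expression tables. They were measured by RNA-seq in 22 libraries of E14 cells, a mouse embryonic stem cell line, grown in serum medium with leukemia inhibitory factor (LIF) on gelatin. The cells were transfected with small interfering RNAs (siRNAs) and harvested after 3 days. The siRNAs were non-targeting (siNT) or directed against Rpl14 or Rpl11, which encode proteins of the large ribosomal subunit, or against Dux, which encodes a transcription factor of the 2-cell embryo. Cells given a single targeting siRNA also received siNT, and controls received siNT alone.

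The libraries fell into 3 sets. In set 1 (8 libraries) cells received siNT, siRpl11, siRpl14 or the combination siRpl14+siRpl11, with 2 libraries for every treatment. In set 2 (4 libraries) the treatments were siDux, siNT, siRpl14+siDux and siRpl14, with 1 library for every treatment. Set 3 (10 libraries), in a table of its own, repeated the treatments of set 2 with 2 libraries for every treatment, and added a single library of siRpl14+siRpl11 and a single one of siRpl11. Sets 1 and 2 share a table and were separated here only by the form of their titles. All comparisons were made within a set unless stated. The labels do not say that replicate libraries came from separate cultures, so the p-values measure the spread between these libraries, which may be technical.

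Naive pluripotency is the state of the preimplantation epiblast and of mouse embryonic stem cells held by LIF. LIF acts through its receptor and the kinase Jak1 on Stat3, and Klf4 and Tfcp2l1 are known targets of that route. Esrrb, Klf2, Klf4, Klf5, Tbx3 and Tfcp2l1 are transcription factors that sustain one another and the core factors Pou5f1, Sox2 and Nanog, while Prdm14 restrains FGF signalling and de novo DNA methylation. Zfp42 (Rex1) is a reporter of the naive state, Nr0b1 (Dax1) is a nuclear receptor that represses genes of the 2-cell programme, and Dppa3 (Stella) protects DNA from demethylation in the early embryo. As cells leave the naive state, these genes are replaced by Otx2, Pou3f1, Dnmt3a and Dnmt3b.

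Upstream sequence is shown for 3 genes that fell with siRpl14+siRpl11 in set 1 (Tfcp2l1, Klf4 and Zfp42) and for Klf2, which did not pass the test in any contrast. The sequences are the 250 bases before the RefSeq start site in build GRCm38.p6, written 5′ to 3′ along the gene; the search covered 300 bases, from 250 before to 50 after the start, in these genes and in all promoters. Capitals mark matches, on either strand, to the motifs searched: AAGGTCA (bound by ESRRB), GGGTGTG and GGGCGTG (2 forms of the KLF motif), GGGCGG (GC box), TTCCNGGAA (STAT) and ATGCAAAT (octamer).
Tfcp2l1, chr1:118627695-118627944, plus strand: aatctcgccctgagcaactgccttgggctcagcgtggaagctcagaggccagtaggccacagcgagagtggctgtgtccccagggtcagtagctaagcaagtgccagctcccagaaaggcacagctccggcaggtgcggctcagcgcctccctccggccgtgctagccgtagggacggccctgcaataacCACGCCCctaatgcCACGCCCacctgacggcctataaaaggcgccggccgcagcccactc
Klf4, chr4:55532476-55532725, minus strand: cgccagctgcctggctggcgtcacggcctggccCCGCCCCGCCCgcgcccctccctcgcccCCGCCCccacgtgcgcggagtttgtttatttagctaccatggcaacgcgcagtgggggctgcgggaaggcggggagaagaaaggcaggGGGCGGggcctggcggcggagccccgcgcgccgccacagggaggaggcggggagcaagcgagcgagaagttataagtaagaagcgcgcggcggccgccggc
Zfp42, chr8:43307010-43307259, minus strand: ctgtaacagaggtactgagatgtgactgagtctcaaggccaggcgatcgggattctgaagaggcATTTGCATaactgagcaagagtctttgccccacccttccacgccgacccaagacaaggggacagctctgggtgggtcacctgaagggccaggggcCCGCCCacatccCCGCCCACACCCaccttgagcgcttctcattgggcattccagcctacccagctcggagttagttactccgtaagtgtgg
Klf2, chr8:72318812-72319061, plus strand: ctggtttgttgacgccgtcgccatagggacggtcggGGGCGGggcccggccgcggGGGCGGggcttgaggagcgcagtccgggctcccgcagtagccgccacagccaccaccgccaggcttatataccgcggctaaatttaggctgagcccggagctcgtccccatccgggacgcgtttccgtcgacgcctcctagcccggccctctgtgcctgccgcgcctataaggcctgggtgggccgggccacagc
The Tfcp2l1 sequence holds the GGGCGTG form, at positions beginning 60 and 46 bases before the start. That form is found in 8.44% of the 32851 promoters in the RefSeq table. The Klf4 sequence holds 4 GC boxes and the Klf2 sequence holds 2, a motif present in 35.7% of all promoters. The Zfp42 sequence holds an octamer, present in 1.74% of promoters, 186 bases before the start, and a GGGTGTG match, present in 7.95%, that overlaps 1 of its 2 GC boxes. AAGGTCA and TTCCNGGAA, found in 4.72% and 1.15% of all promoters, matched none of these 4 windows. The table held entries for 6 of the 10 genes, and those of Esrrb and Nr0b1 are not shown. Esrrb held a GGGTGTG match at 1 start site and no match at its other one, and Nr0b1 held no match. The marked motifs are matches of letters, and no binding was measured.

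Values are FPKM, fragment counts scaled to transcript length and library size. All 10 genes passed the filter of at least 1 FPKM in at least 2 libraries in both fitted sets, with 12129 genes tested in set 1 and 13189 in set 3. The targets checked the labels: against the siNT mean of set 1, Rpl14 stood at 60.2% and 27.1% in the siRpl14 libraries, and Rpl11 at 34.9% and 15.2% in the siRpl11 libraries. With both siRNAs, Rpl14 stood at 15.6% in replicate 1 and 35.3% in replicate 2, and Rpl11 at 13.2% and 33.4%. The files give no read depth. Genes listed at 0 made up 30.8% to 32.1% of each set 1 library, 30.1% to 31.3% of each set 2 library and 50.5% to 56.2% of each set 3 library, so set 3 resolves low genes least. The stem cell markers Pou5f1, Sox2 and Nanog were high in siNT cells of set 1, at 947 ± 3.87, 221 ± 3.58 and 363 ± 21.0 FPKM (SD, n = 2). Of 7 fibroblast genes, Lum, Dcn and Postn were listed at 0 in all 8 libraries of set 1. Col1a1, Col1a2 and Col3a1 reached at most 0.84, 0.054 and 0.0070 FPKM there, while Thy1 reached 15.2 FPKM.

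Knockdown of Rpl14 lowered part of this gene group. In set 1, Tfcp2l1, Klf4 and Prdm14 fell and Dppa3 rose, while the other 6 genes did not pass the test. Called at an adjusted p under 0.05 (limma, Benjamini-Hochberg over all genes), that is 3 lower and 1 higher of 10, where 13.4% of all tested genes were called lower and 18.1% higher. The median log2 change of the 10 genes was -0.45, beside 0.03 over all tested genes. RNA was measured in bulk, so fewer cells expressing a gene and less RNA per cell cannot be told apart here or below.

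Tfcp2l1, a transcription factor downstream of LIF, read 84.4 and 91.4 FPKM in the siNT libraries and 48.9 and 40.0 with siRpl14. Both siRpl14 libraries lay below both controls. On the log2(FPKM + 1) scale, which slightly understates changes of low genes, the change was -0.97 ± 0.25 (SE; limma adjusted p = 0.0233). Klf4, a factor used in reprogramming to pluripotency, read 77.3 and 78.0 FPKM in siNT and 46.2 and 49.5 with siRpl14. Its change was -0.69 ± 0.13 (limma adjusted p = 0.0084), with a gap between the groups far wider than the spread within either. Prdm14 was a low gene, at 13.1 and 14.4 FPKM in siNT and 8.19 and 7.39 with siRpl14. It fell by 0.75 ± 0.17 (limma adjusted p = 0.0143). Dppa3 went the other way, from 9.54 and 6.46 FPKM in siNT to 13.2 in each siRpl14 library. The rise was 0.68 ± 0.16 (limma adjusted p = 0.0189).

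These calls rested on few libraries. Without siNT replicate 1, without siNT replicate 2 or without siRpl14 replicate 2, fewer of the 10 genes were called. Fewer of all tested genes were called in those fits too. The Tfcp2l1 and Prdm14 calls were lost in each of those cases, the Klf4 call without siNT replicate 1, and the Dppa3 call without siNT replicate 2 or siRpl14 replicate 2. Directions of these 4 genes held in every case.

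Of the genes that missed the threshold with siRpl14, Esrrb, an orphan nuclear receptor of the network, read 241 and 245 FPKM in siNT and 180 and 140 with siRpl14, a change of -0.61 (limma adjusted p = 0.0641). Zfp42 read 485 and 521 FPKM in siNT and 440 and 323 with siRpl14, a change of -0.41 (limma adjusted p = 0.187). Tbx3, Klf5 and Nr0b1 had changes of -0.48, -0.33 and -0.35. In each of these 5 genes both siRpl14 libraries lay below both controls. Klf2 alone overlapped, at 228 and 263 FPKM in siNT and 269 and 204 with siRpl14.

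Set 2, with 1 library a group and so no test, gave larger differences in all 10 genes, which were not tested against those of set 1. With siRpl14, 9 of the 10 genes were lower by more than 1.5-fold and Dppa3 was higher by more than 1.5-fold, where 13.3% and 15.3% of genes passed that fold. Tfcp2l1 read 77.8 FPKM with siNT and 30.3 with siRpl14, 39.0% of the control. Zfp42 stood at 43.8% and Esrrb at 47.3% of the control. Klf2, which overlapped in set 1, read 338 FPKM with siNT and 181 with siRpl14. Fitted over the 12 libraries of sets 1 and 2 with the set as a term, the siRpl14 contrast (3 libraries against 3) called 8 of the 10 genes lower and Dppa3 higher, where 21.8% of all genes were called lower and 25.9% higher. In that limma fit the change was -1.09 ± 0.20 for Tfcp2l1 (adjusted p = 0.0023), -0.77 ± 0.18 for Esrrb (adjusted p = 0.0079) and -0.34 for Klf2 (adjusted p = 0.225).

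Knockdown of Rpl11 lowered 6 of the 10 genes in set 1 and raised Dppa3. The background was 28.4% of genes called lower and 16% higher, with a median log2 change of -0.11 over all genes and -0.83 over these 10. Tfcp2l1 had the largest change, to 31.4 and 22.6 FPKM, and fell by 1.69 ± 0.25 (limma adjusted p = 0.0033). Klf4 read 36.0 and 40.4 FPKM, and fell by 1.01 ± 0.13 (limma adjusted p = 0.0025). Klf5, a factor of both epiblast and trophectoderm, read 110 and 153 FPKM in siNT and 74.2 and 66.4 with siRpl11. It fell by 0.88 ± 0.17 (limma adjusted p = 0.0067). Prdm14 fell by 0.96, Esrrb by 0.94 and Tbx3 by 0.77. The Esrrb call was lost without either siNT replicate or without siRpl11 replicate 2, and the Tbx3 call without either siNT replicate or without siRpl11 replicate 1.

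Of the 4 remaining genes, Zfp42 read 382 and 344 FPKM with siRpl11, below both controls, a change of -0.47 that did not pass (limma adjusted p = 0.122); it passed without replicate 1 (adjusted p = 0.0474) or without replicate 2 (adjusted p = 0.0467) of the combined knockdown in the limma fit. Dppa3 read 20.8 and 20.9 FPKM with siRpl11, its highest levels in set 1, and rose by 1.30 ± 0.16 (limma adjusted p = 0.0025). Nr0b1 read 50.8 and 60.1 FPKM in siNT and 62.0 and 85.03 with siRpl11, a change of 0.39 that did not pass (limma adjusted p = 0.113). Klf2 read 253 and 243 FPKM, inside its control range, with a change of 0.02 and a 95% interval from -0.52 to 0.56.

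**Figure D1:**
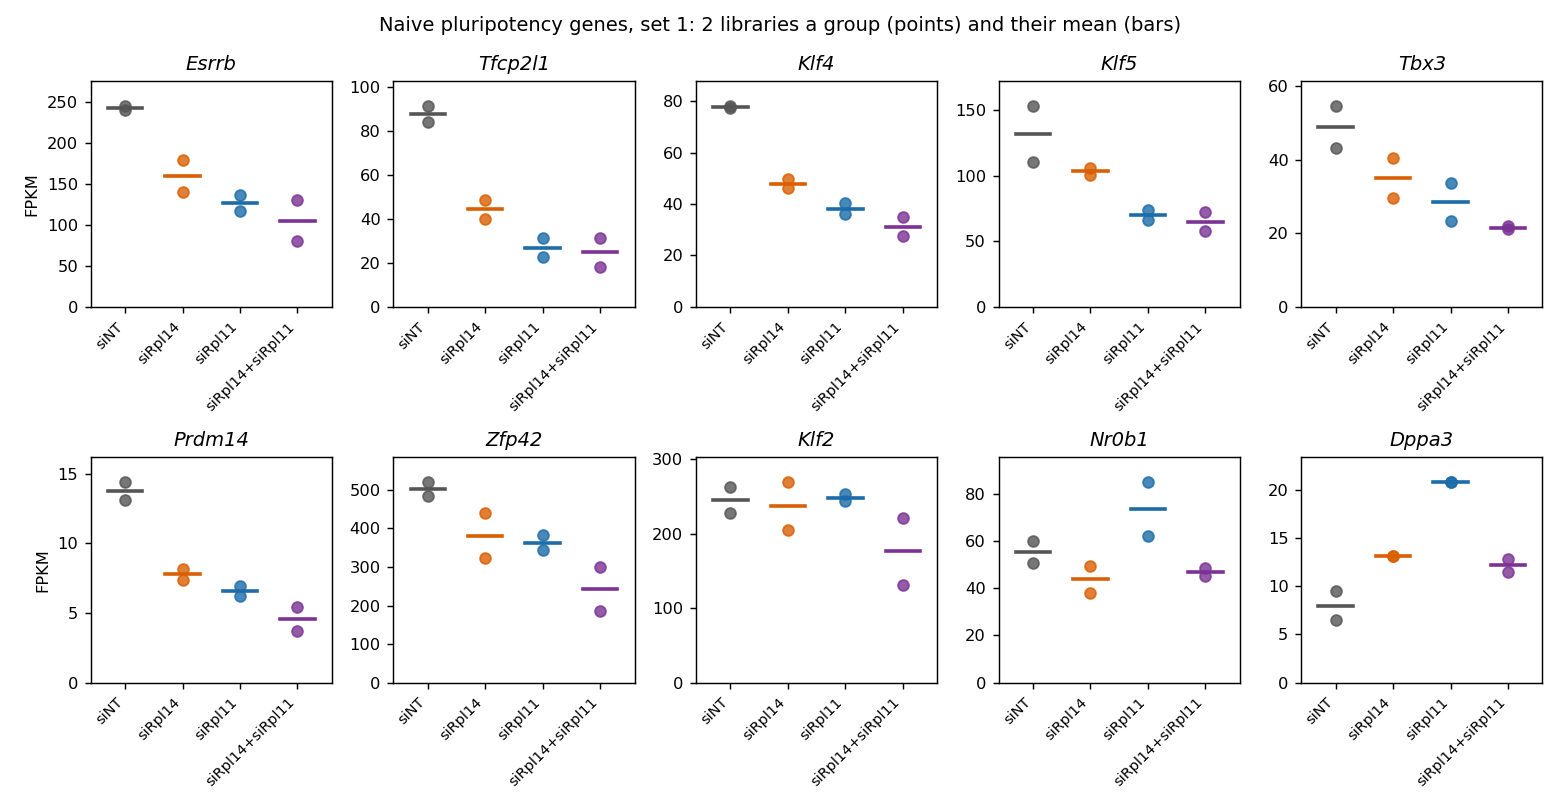
FPKM of each gene (y axis, starting at 0) in the 4 groups of set 1 (x axis). Points are single libraries and bars the mean of 2; Klf4 falls from 77.3 and 78.0 FPKM in siNT to 27.7 and 34.8 with both siRNAs, while Dppa3 is highest with siRpl11.

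With both siRNAs, 7 of the 10 genes were lower than in siNT and Dppa3 was higher, where 25% of all genes were called lower and 16.6% higher. The median log2 change was -1.11, beside -0.07 over all genes. Tfcp2l1 read 18.2 and 31.5 FPKM and fell by 1.83 ± 0.25 (limma adjusted p = 0.0033). Prdm14 read 3.71 and 5.41 FPKM and fell by 1.43 ± 0.17 (limma adjusted p = 0.0027). Klf4, at 27.7 and 34.8 FPKM, fell by 1.30. Esrrb, at 80.6 and 130 FPKM, fell by 1.24. Tbx3, at 21.0 and 21.9 FPKM, fell by 1.14. Zfp42, at 187 and 301 FPKM, fell by 1.08, and Klf5, at 57.6 and 72.1 FPKM, fell by 1.00. The Zfp42 call was lost without either siNT replicate or without replicate 1 of the combined knockdown. Dppa3, at 12.8 and 11.5 FPKM, rose by 0.57 ± 0.16 (limma adjusted p = 0.0257). Leaving out siNT replicate 2 or replicate 1 of the combined knockdown ended that call. Klf2 read 131 and 221 FPKM and Nr0b1 45.1 and 48.4 FPKM, and neither passed (limma adjusted p = 0.106 and 0.313).

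**Figure D2:**
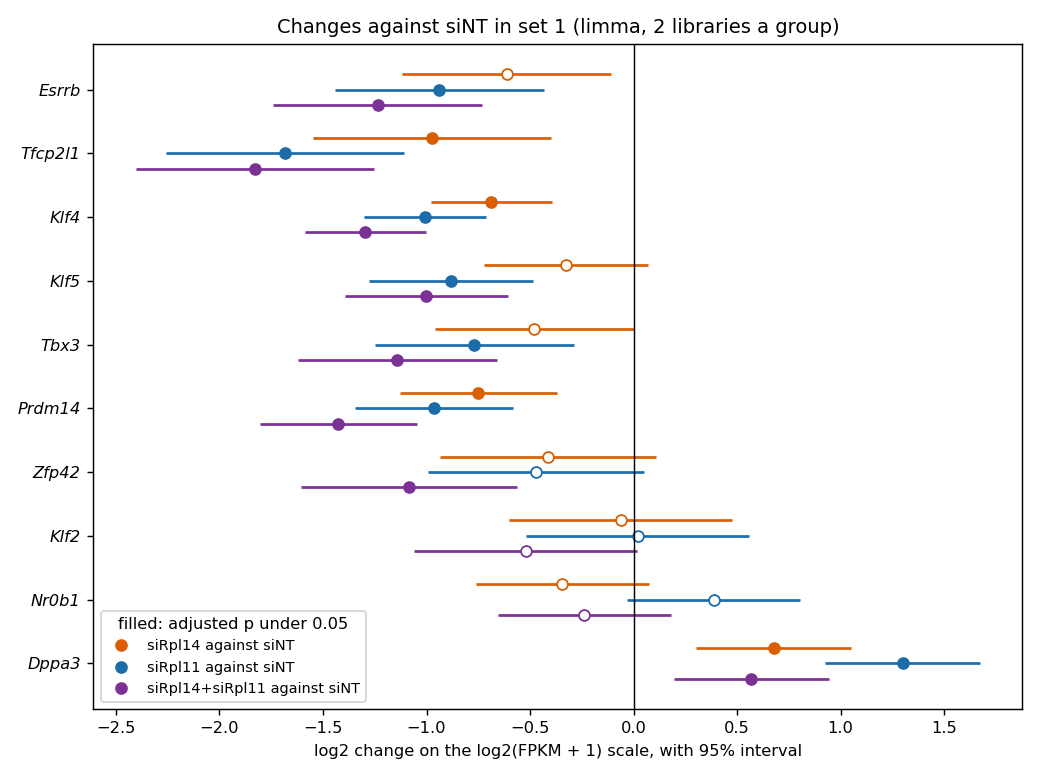
Log2 change against siNT in set 1 for each gene (rows), on the log2(FPKM + 1) scale, with 95% intervals from limma; filled points have an adjusted p under 0.05. The changes of Tfcp2l1 run from -0.97 to -1.83, those of Dppa3 lie above 0 in all 3 contrasts, and those of Klf2 and Nr0b1 are open.

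The knockdowns were also set against each other. With siRpl11 added to siRpl14, Klf4 was lower by 0.61 (limma adjusted p = 0.0299) and Prdm14 by 0.68 (limma adjusted p = 0.0487). That is 2 of 10, where 6.61% of genes were called lower. Rpl14 stood at 15.6% and 35.3% of the siNT mean with both siRNAs, and at 60.2% and 27.1% with siRpl14 alone. The part of the remaining Rpl14 in this contrast was not tested. The Klf4 call was lost with median-ratio rescaling and quantile normalization, and the Prdm14 call with those, with a pseudocount of 0.1, with no filter and with a filter of 5 FPKM. Both calls were lost without either siNT replicate, without either siRpl14 replicate or without replicate 1 of the combined knockdown. The Prdm14 call was also lost without either siRpl11 replicate. Across the left-out libraries the change ran from -0.77 to -0.45 for Klf4 and from -0.90 to -0.45 for Prdm14. Adding siRpl14 to siRpl11 gave no call among the 10 genes or among all 12129 in limma. At an unadjusted p under 0.05 that contrast held 5 of the 10 genes, all lower, and 387 genes in all. Compared directly, Dppa3 was lower with siRpl14 than with siRpl11 by 0.62 (limma adjusted p = 0.0423), and Nr0b1 fell by 0.73 on the same scale (limma adjusted p = 0.036), where 1.45% of genes were called lower. The Dppa3 call in this contrast was lost without any single library of the siRpl11, siRpl14 or combined groups, and the Nr0b1 call without either siNT replicate, without siRpl11 replicate 2 or without siRpl14 replicate 2. The interaction term called Dppa3 alone, at -1.41 ± 0.23 (limma adjusted p = 0.0265), where 2.65% of genes were called lower: with both siRNAs Dppa3 was lower than the sum of the separate changes.

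The genes were also compared with one another across the 8 libraries of set 1. Over the 21 pairs of Klf4, Klf5, Esrrb, Tbx3, Tfcp2l1, Zfp42 and Prdm14, Pearson's r of log2(FPKM + 1) ran from 0.71 to 0.98 with a median of 0.91. These 7 were grouped after their r was seen. They are also the 7 genes called lower with siRpl14+siRpl11 in the same libraries, so the choice itself favoured a high r. Over the 8 fitted libraries of set 3 the same pairs ran from -0.52 to 0.86, with a median of 0.38. Against the other 9 genes in set 1, r ran from -0.01 to 0.88 for Klf2, highest with Zfp42, from -0.16 to 0.46 for Nr0b1 and from -0.74 to 0.37 for Dppa3. These libraries share their groups, so the values describe the pattern of 4 conditions. Among 8217 genes with a mean of at least 5 FPKM, the genes most like Esrrb over these libraries were Ermp1 (r = 0.995) and Sik1 (r = 0.994), and those most like Prdm14 were Lgals3 (r = 0.992) and Nr5a2 (r = 0.989). Over the 8 fitted libraries of set 3, r was 0.37 for Ermp1, -0.43 for Sik1, -0.44 for Lgals3 and -0.09 for Nr5a2. The 2 nearest genes were Prr13 and Rmnd5b for Tfcp2l1, Kat6b and Itga6 for Klf5, Mllt6 and Tmeff1 for Tbx3, and Dmtn and Oxsr1 for Zfp42. They were Cox11 and Oxsr1 for Klf2, Bicral and Ndrg3 for Nr0b1, and Mrpl18 and Syf2 for Dppa3, and over all these genes r in set 3 ran from -0.61 to 0.78.

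The median absolute log2 difference between the 2 libraries of a group, over these 10 genes, was 0.16 in siNT, 0.16 with siRpl11, 0.32 with siRpl14 and 0.38 with both siRNAs. With both, replicate 1, which had less Rpl14 and Rpl11 left, was lower than replicate 2 for 9 of the 10 genes, all but Dppa3. Zfp42 read 187 FPKM in replicate 1 and 301 in replicate 2. With siRpl14, replicate 2 had less Rpl14 left, and was lower for 7 genes and higher for Klf4, Klf5 and Tbx3. With siRpl11, replicate 2 had less Rpl11 left, and was lower for 6 genes and higher for Dppa3, Klf4, Nr0b1 and Tbx3. Between siNT libraries, replicate 1 was lower for 9 of 10. Whether the remaining target RNA sets these differences was not tested.

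In set 3, none of the 10 genes passed with siRpl14, where limma called 0.66% of all genes; 3 of the 10 and 1632 genes in all had an unadjusted p under 0.05. The fitted values were below 0 for 8 genes, with a median of -0.53. Tfcp2l1 read 73.2 and 59.1 FPKM in siNT and 35.5 and 38.3 with siRpl14, a change of -0.82 ± 0.26 (limma adjusted p = 0.257). Zfp42 read 226 and 210 FPKM in siNT and 131 and 141 with siRpl14, a change of -0.68 (limma adjusted p = 0.26). Klf4 overlapped, at 46.1 and 44.5 FPKM in siNT and 36.8 and 47.2 with siRpl14. The lowest genes were poorly resolved: Prdm14 was listed at 0 in 5 of the 10 libraries and reached 5.14 FPKM at most, while Dppa3 and Nr0b1 were each listed at 0 in 1 library. Dppa3 read 4.95 and 4.61 FPKM in siNT and 3.95 and 17.2 with siRpl14, so 1 library was below both controls. Prdm14 read 2.70 and 2.42 FPKM in siNT and 2.08 and 5.14 with siRpl14, a fitted change of 0.29. The single siRpl11 library read 23.6 FPKM for Tfcp2l1, 28.1 for Esrrb, 23.4 for Klf4 and 98.1 for Klf2. The single siRpl14+siRpl11 library read 18.3 FPKM for Tfcp2l1, 18.5 for Esrrb, 31.5 for Klf4 and 67.7 for Klf2.

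Knockdown of Dux left 9 of the 10 genes within 1.5-fold of the control in set 2. Dppa3 was the exception, at 8.32 FPKM with siNT and 4.99 with siDux, where 0.631% of genes were lower past that fold. Dux itself read 0.31 FPKM with siNT, 0.055 with siDux, 1.495 with siRpl14, and 0.17 when siDux was added. In set 3 Dux was listed at 0 in both siNT and both siDux libraries, so its knockdown could not be checked there. In that set, limma called none of the 10 genes with siDux, where 0.00758% of all genes were called, and 1 of the 10 and 660 genes in all had an unadjusted p under 0.05. Prdm14, that 1 gene, read 2.70 and 2.42 FPKM in siNT and was listed at 0 in both siDux libraries. These values are near the floor of set 3, and in set 2 Prdm14 read 13.3 FPKM with siNT and 14.0 with siDux.

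When siDux was added to siRpl14 in set 2, Dppa3 was the 1 gene of the 10 that differed by more than 1.5-fold. Against siRpl14 alone 9 genes stayed within 1.5-fold, while Dppa3 read 15.8 FPKM with siRpl14 and 8.48 with both siRNAs, where 1.37% of genes were lower past that fold. Against siNT, 8 genes were lower past 1.5-fold with siRpl14+siDux, where 13.2% of genes were. Tfcp2l1 then stood at 43.9% of the control, beside 39.0% with siRpl14 alone, and Esrrb at 51.3%, beside 47.3%. The 7 listed genes of the 2C-like group, which mark cells in a state like the 2-cell embryo, summed to 73.8 FPKM with siNT, 3.06 with siDux, 175 with siRpl14 and 10.3 when both were given. Dppa3 read 8.32, 4.99, 15.8 and 8.48 FPKM in the same 4 libraries, so it matched the direction of the sum with siDux and with siRpl14 but was at 102% of the control with siRpl14+siDux. In set 1 the sum was 109 to 111 FPKM with siRpl14 and 23.9 to 24.7 with siRpl11, where Dppa3 was highest. The part of 2C-like cells in the Dppa3 values was not tested.

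In set 3, limma called none of the 10 genes for siRpl14+siDux against siNT (1.02% of all genes called, 5 of the 10 and 1955 genes at an unadjusted p under 0.05), against siRpl14 (0.0152%, 1 of the 10 and 894 genes), or for the interaction (0.0152%, 0 of the 10 and 699 genes). All 10 fitted values against siNT were below 0, with a median of -0.69. Nr0b1 read 35.6 and 26.5 FPKM in siNT, 14.9 and 5.80 with siRpl14, and 4.02 and 0 with siRpl14+siDux. Its change against siNT was -3.82 ± 0.75 (limma adjusted p = 0.0678). The 4.02 FPKM is the smallest Nr0b1 value above 0 in set 3. The size of this change therefore rests on values at the floor of that set. In set 2 Nr0b1 read 76.7 FPKM with siNT, 33.7 with siRpl14 and 27.6 when siDux was added. Against siRpl14 alone, the 95% intervals in set 3 ran from -0.46 to 0.74 for Tfcp2l1 and from -0.54 to 0.47 for Zfp42.

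**Figure D3:**
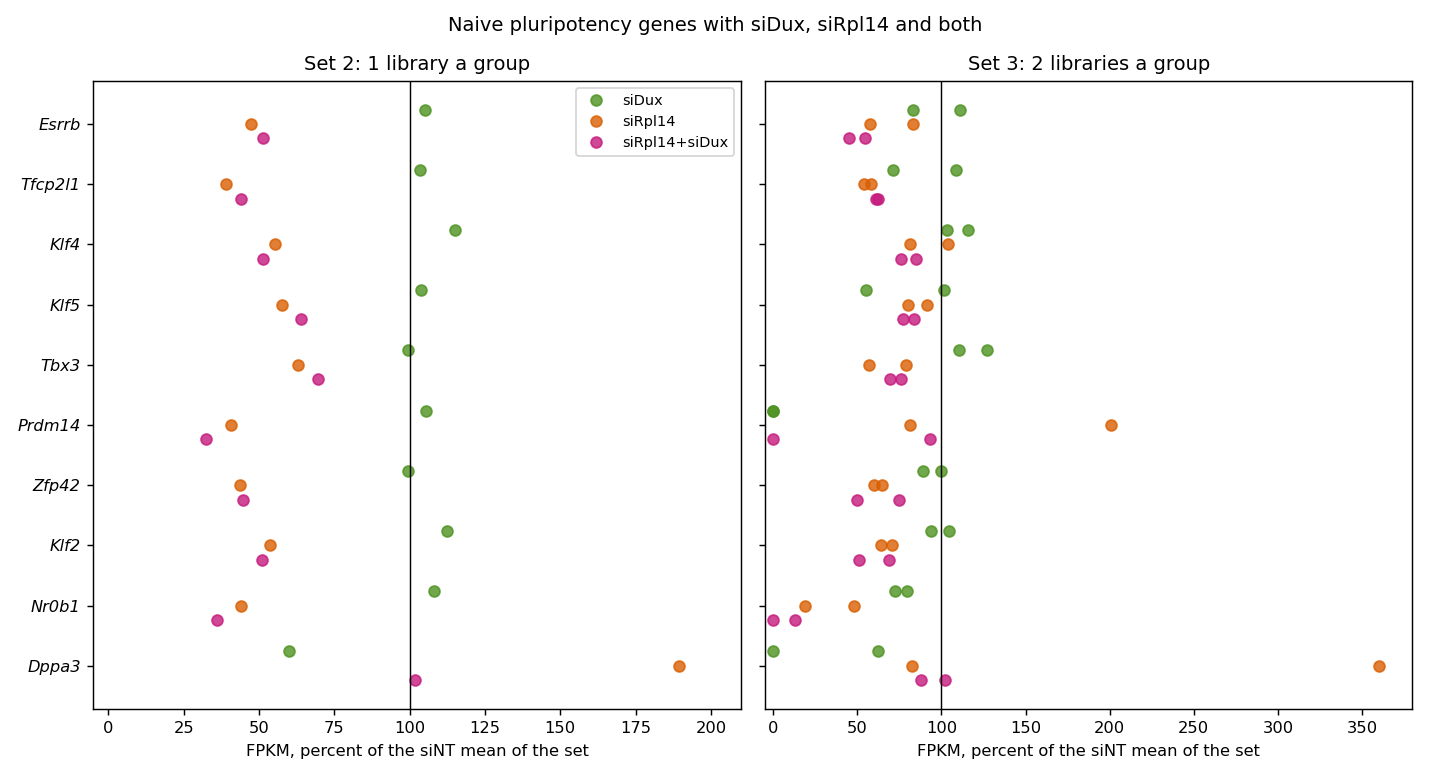
FPKM as a percent of the siNT mean of the same set (x axis) for each gene (rows) in set 2, 1 library a group, and set 3, 2 libraries a group; each point is a library and the vertical line is the siNT mean. In set 2 Tfcp2l1 stands at 39.0% with siRpl14 and at 43.9% when siDux was added, and Dppa3 at 190% and 102%.

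Other genes of the pluripotency network moved in both directions in set 1. Of the core factors, Nanog fell by 0.80 with siRpl11 and 1.29 with both siRNAs (limma adjusted p = 0.0124 and 0.0038), and had a change of -0.52 with siRpl14 (limma adjusted p = 0.0678). Sox2 rose by 0.34, 0.48 and 0.31 with siRpl14, siRpl11 and both (limma adjusted p = 0.0439, 0.0103 and 0.0465). Pou5f1 passed in none of the 3 contrasts. Of 16 further network genes, 5 were lower and 3 higher with siRpl14, 6 lower and 3 higher with siRpl11, and 7 lower and 3 higher with both. Of all tested genes, 13.4%, 28.4% and 25% were called lower and 18.1%, 16% and 16.6% higher, in the same order. The share of network genes called higher was thus near that of all genes. Tcl1, an activator of Akt signalling, fell by 1.25, 1.02 and 1.27 in that order. Tcf7l1, a repressor of naive genes, rose by 0.94, 1.80 and 1.84, and Dppa2 rose by 1.07, 1.34 and 1.22. Nr5a2, a nuclear receptor, fell by 0.55 with siRpl11 and 0.92 with both.

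Of 10 genes of the LIF route, 4 were lower and 2 higher with siRpl14, 7 lower and 0 higher with siRpl11, and 6 lower and 1 higher with both. Jak1, the kinase of the receptor, fell by 0.58, 1.13 and 1.02 (limma adjusted p = 0.0114, 0.0021 and 0.0027). Socs3, a target and inhibitor of the route, fell by 0.68, 1.20 and 1.07. Stat3 itself rose by 0.48 with siRpl14 and by 0.49 with both siRNAs. The median log2 changes of the list were -0.29, -0.48 and -0.43, beside 0.03, -0.11 and -0.07 over all tested genes. Lower calls also outnumbered higher ones over all genes with siRpl11 (28.4% against 16%) and with both siRNAs (25% against 16.6%), but not with siRpl14 (13.4% against 18.1%).

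Of 11 tested genes of the formative and primed epiblast, 5 were higher and 1 lower with siRpl14, 8 higher and 1 lower with siRpl11, and 9 higher and 1 lower with both, the lower gene being Tead2. Of all tested genes, 18.1%, 16% and 16.6% were called higher and 13.4%, 28.4% and 25% lower. The list's median log2 changes were 0.68, 1.53 and 1.45. Otx2, a transcription factor that drives the exit from the naive state, read 10.9 ± 2.42 FPKM in siNT, 48.0 ± 5.86 with siRpl14, 98.4 ± 9.29 with siRpl11 and 92.0 ± 12.7 with both (SD, n = 2). It rose by 2.05, 3.08 and 2.98 (limma adjusted p = 0.00095, 0.0011 and 0.00073). Sall2 rose by 1.55, 2.61 and 2.68, and Pou3f1 by 1.04, 1.57 and 1.44. The de novo methyltransferases Dnmt3a and Dnmt3b rose by 0.68 and 0.62 with siRpl14, and by 1.53 and 1.31 with siRpl11. Fgf5, a primed marker, did not reach the filter. In set 2, with 1 library a group, Zic2, Zic5, Etv4 and Tead2 were lower with siRpl14 than with siNT. The other listed genes were higher, Dnmt3b by 0.09 on the log2 scale. In set 3, none of the 10 tested genes of this list passed with siRpl14, and its median there was 0.25.

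Among 11 other Klf genes tested in set 1, 3 were higher and 1 lower with siRpl14, 1 higher and 2 lower with siRpl11, and 3 of each with both siRNAs. Klf9 is also in the list of further network genes. For this list and the trophectoderm list below, the shares of all genes called higher were 18.1%, 16% and 16.6%. The shares called lower were 13.4%, 28.4% and 25%. Klf15 fell by 1.12, 1.18 and 1.10 in those contrasts. Klf3 fell by 0.79 with siRpl11 and 0.81 with both. Klf6 rose by 1.47 with siRpl14 (limma adjusted p = 0.0075) and had changes of 0.38 and 0.41 in the other 2 contrasts, which did not pass. Trophectoderm markers, which stem cell cultures can hold at low levels, summed to 35.5 to 39.9 FPKM in siNT, 49.7 to 75.9 with siRpl14, 28.7 to 32.1 with siRpl11 and 26.4 to 26.7 with both. Of the 8, 3 rose and 0 fell with siRpl14 among 6 tested. With siRpl11 0 rose and 2 fell, and with both siRNAs 0 rose and 2 fell. Cdx2 was at most 1.32 FPKM and Elf5 at most 0.10 FPKM in any library of set 1. Tfap2c, Krt8 and Krt18 reached 40.5, 13.0 and 10.8 FPKM there. The part of cells with these markers in the values above was not tested.

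The remaining lists are given as counts for siRpl14, siRpl11 and both siRNAs against siNT in set 1. Of all tested genes, 18.1%, 16% and 16.6% were called higher and 13.4%, 28.4% and 25% lower. Of 8 genes of the DNA methylation machinery, 3 were higher and 1 lower in each contrast. The lower gene was Uhrf1, which guides maintenance methylation. Dnmt3a and Dnmt3b in this list were already counted in the epiblast list, and Tet1 and Tet2 among the further network genes. Of the 6 stem cell markers, 2, 3 and 3 were higher and 1, 1 and 2 lower, with Sall4 up by 1.00, 1.45 and 1.35. Of 7 2C-like genes tested, 7, 0 and 0 were higher and 0, 3 and 2 lower. Of 10 p53 pathway genes, 9, 8 and 7 were higher and 0 lower. None of 3 primitive endoderm genes tested passed. Thy1, the 1 fibroblast gene that reached the filter, fell by 1.19, 1.37 and 1.40.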

How the data were processed

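RNA-seq libraries were prepared from total RNA with a stranded mRNA kit, per the labels' protocols. The deposited values are FPKM per gene; STAR, Cuffnorm and build mm9 are named in the submitters' processing notes, while versions, annotation, strand setting and normalization were not given in the sources used here. Read depth is unknown, so no counting intervals are given. FPKM were tested as log2(FPKM + 1) with limma 3.58.1 in R 4.3.3 (trended, robust empirical Bayes; statmod 1.5.0), on genes reaching 1 FPKM in 2 or more libraries, with Benjamini-Hochberg adjustment over all genes of a contrast and a threshold of 0.05. The 4 groups of a fit share 1 estimate of the spread. The code was tested on simulated data. Set 2 has 1 library a group and no test. All 10 genes are named; from each of 11 other lists, up to 4 genes of largest change past the threshold, and Pou5f1, Sox2 and Nanog; and the 2 genes most like a member (not reported here for Klf4). The members and lists were chosen with earlier results of these data known. Sequences are from RefSeq, build GRCm38.p6, and were not placed on mm9. Alternatives covered the pseudocount, the filter, 2 rescalings, a replicate block, sets 1 and 2 together and each library left out.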

Additional observations from a re-analysis of the deposited data

Results flagged for a closer look

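The response of Dppa3 to siRpl14 differed between cells with and without siRpl11 in set 1, with an interaction of -1.41 on the log2 scale (limma adjusted p = 0.0265, 2 libraries a group). Dppa3 was 0.68 higher with siRpl14 than with siNT, and fell by 0.73 when siRpl14 was added to siRpl11, a difference that did not itself pass (limma adjusted p = 1.00). Leaving out single libraries kept the sign of the interaction, from -1.66 to -1.16. The call was lost without either siNT replicate, either siRpl11 replicate, siRpl14 replicate 2 or replicate 2 of the combined knockdown, and with the replicate number as a block.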

How the results depend on the processing

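Over 71 results, 405 of 431 values under other settings kept their direction and their side of the threshold, 13 lost a call, 11 gained one and 2 changed sign; over 568 values with 1 library left out, 498 kept both, 48 lost a call, 14 gained one and 8 changed sign. The 71 results were every gene against siNT, siDux alone excepted, and in other contrasts genes at an unadjusted p under 0.05 in the limma fit. Many of the values could not change direction: a filter, the replicate block or a left-out library outside the contrast leaves the estimate as it was. The counts that kept direction therefore overstate how far directions were tested. Outside left-out libraries, Klf2 with siRpl11 in set 1 changed sign, to -0.061 under quantile normalization. So did Dppa3 with siRpl14+siDux in set 3, to 0.0022 under median-ratio rescaling. For siRpl14+siRpl11 against siRpl14, where 2 genes were called, 1 was called with a pseudocount of 0.1, 1 with no filter, 1 with a filter of 5 FPKM, 0 with median-ratio rescaling and 0 with quantile normalization. Over all genes those settings called 761 of 12129, 827 of 19094, 491 of 8827, 594 of 12080 and 463 of 12129. For siRpl14 against siRpl11, where 2 were also called, 0 were called with no filter, beside 1537 of 19094 over all genes. For siRpl14 against siNT in set 1, 9 were called in place of 4 when sets 1 and 2 were fitted together. For siRpl14+siDux against siNT in set 3, 1 gene, Nr0b1, was called with a filter of 5 FPKM, where 177 of 8842 genes were called. Its siRpl14+siDux values lie at the floor of that set. The cause was not tested.

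The shared replicate numbers were not taken as pairs, since not every correlation of same-numbered deviations passed 0.1. In set 1 these were 0.25, 0.18 and 0.50 among siNT, siRpl11 and siRpl14, and from -0.50 to -0.24 between those groups and the combined knockdown; in set 3 they ran from 0.006 to 0.039. With a replicate block, 0 of the 10 genes were called for siRpl14 against siRpl11, 0 for the set 1 interaction and 1, Nr0b1, for siRpl14+siDux against siNT in set 3. Over all genes the block called 1090 of 12129, 27 of 12129 and 158 of 13189 in those contrasts. For siRpl14+siRpl11 against siRpl14 the Prdm14 call was lost (limma adjusted p = 0.0808) and a Tbx3 call gained (0.0454), and Tbx3 was gained for siRpl14 against siNT (0.041).

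With 1 library left out, the lone library of its group was assumed to vary like the others. The number of the 10 genes called changed between these fits for siRpl14, siRpl11 and both siRNAs against siNT in set 1. It also changed for both against siRpl14, for siRpl14 against siRpl11, for the interaction, and for siRpl14+siDux against siNT in set 3. For both against siRpl14, siRpl14 against siRpl11 and the interaction, fewer of all tested genes were called wherever the number fell. The same held for siRpl14 against siNT in set 1 where the number was lowest. Values that changed sign ran from -0.26 to 0.14 for Klf2 with siRpl14 and from -0.081 to 0.12 with siRpl11 in set 1. In set 3 with siRpl14 they ran from -0.22 to 1.66 for Dppa3, -0.29 to 0.057 for Klf4 and -0.21 to 0.79 for Prdm14, and with siRpl14+siDux from -0.15 to 0.026 for Dppa3. The 2 libraries a group, an unknown depth and, in set 3, values of 0 among the lowest genes limit these results.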
